A study of Mus musculus with 2 samples.

Results

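The genes described here are 10 that mark endothelial cells of the brain: Cldn5, Flt1, Esam, Pecam1, Cdh5, Bsg, Itm2a, Ly6c1, Ly6a and Slco1a4. They were taken by name, and all 10 are among the 15474 genes of the deposited count matrix. The cells came from the dentate gyrus (DG), a part of the hippocampal formation, of C57BL/6J mice of both sexes, 4 to 5 weeks old, with no genetic change. Fresh cells, pooled from 3 mice, were sorted alive by a dead-cell stain onto 1 plate, and cells fixed in methanol (MeOH), pooled from 4 mice, stored frozen for 3 weeks and rehydrated, were sorted without that stain onto another. SORT-seq, a plate-based form of CEL-seq2, counts the 3′ ends of transcripts by unique molecular identifiers (UMIs), so levels are given as UMIs or CPM (UMIs per 1000000 UMIs of all genes) and were not divided by gene length. Each condition is 1 library made from pooled animals. The fresh and fixed cells can therefore be set side by side, but no test of fixation is possible, and all intervals given are 95% intervals for counting error only.

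Brain endothelial cells line the capillaries and form the blood-brain barrier. Claudins and cell adhesion molecules seal the contacts between neighbouring cells, transporters carry selected nutrients and export foreign compounds, and vesicle traffic and fenestrae are kept low. Cldn5 encodes claudin-5, the main claudin of brain tight junctions. Esam encodes an adhesion molecule of the junctions, Pecam1 encodes CD31, and Cdh5 encodes VE-cadherin, the cadherin of endothelial adherens junctions. Flt1 encodes VEGF receptor 1. Slco1a4 encodes an organic anion transporter of the barrier, and Bsg encodes basigin, a glycoprotein that accompanies monocarboxylate transporters to the membrane and is also made by many other cells. Ly6c1 and Ly6a, the latter known as Sca-1, encode surface proteins of the Ly6 family, and Itm2a encodes a membrane protein of the ITM2 family.

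In GRCm38 coordinates (GENCODE annotation), Cldn5 lies on chromosome 16 (18776847-18778262, plus strand), Flt1 on chromosome 5 (147561604-147726011, minus strand), Esam on chromosome 9 (37528078-37538319, plus strand) and Pecam1 on chromosome 11 (106654217-106750628, minus strand). Cdh5 lies on chromosome 8 (104101625-104144511, plus strand) and overlaps Gm29682, which is read from the opposite strand. Whether the counting used strand is not given in the sources used here, so Cdh5 UMIs could include reads of that gene, which is not listed in the matrix. Bsg lies on chromosome 10 (79704491-79711969, plus strand), Itm2a on the X chromosome (107397099-107403376, minus strand) and Slco1a4 on chromosome 6 (141805440-141856199, minus strand). Ly6a (74994877-74998031) and Ly6c1 (75044018-75048830) are neighbours on the minus strand of chromosome 15. Because reads that matched several places equally well had been discarded, the last 500 bases of each gene's transcripts were searched for 60-base windows that also occur in another gene. No such window was found for 8 of the 10 genes. For Ly6c1, 24.1% of the windows also occur in Ly6c2 or Ly6a, and for Ly6a, 3.66% occur in Ly6c1 or I830127L07Rik, so transcripts of these 2 genes that ended in such windows could have been left uncounted.

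The promoters of Cldn5, Flt1 and Slco1a4 are shown because these genes stand for a junction protein, a receptor and a transporter. As described below, Cldn5 and Flt1 were detected in the same 10 cells, and Slco1a4 in 8 of those. The windows are the 250 bases before the RefSeq start of each gene (GRCm38.p6), printed in the direction of transcription. Capitals mark each GGAA on either strand (TTCC on the printed strand), the core that ETS factors such as Erg, Fli1 and Ets1 recognise.
Cldn5, chr16:18776597-18776846 (plus strand): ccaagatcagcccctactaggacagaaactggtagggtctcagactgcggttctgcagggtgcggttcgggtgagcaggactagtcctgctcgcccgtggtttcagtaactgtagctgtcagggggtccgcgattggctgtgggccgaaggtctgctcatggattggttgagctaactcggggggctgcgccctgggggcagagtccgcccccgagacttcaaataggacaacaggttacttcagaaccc
Flt1, chr5:147726012-147726261 (minus strand): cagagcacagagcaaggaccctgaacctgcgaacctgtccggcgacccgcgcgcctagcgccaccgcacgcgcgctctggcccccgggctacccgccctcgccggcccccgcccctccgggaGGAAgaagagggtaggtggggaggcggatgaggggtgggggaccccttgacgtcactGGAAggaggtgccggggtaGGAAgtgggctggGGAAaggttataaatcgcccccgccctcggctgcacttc
Slco1a4, chr6:141856221-141856470 (minus strand): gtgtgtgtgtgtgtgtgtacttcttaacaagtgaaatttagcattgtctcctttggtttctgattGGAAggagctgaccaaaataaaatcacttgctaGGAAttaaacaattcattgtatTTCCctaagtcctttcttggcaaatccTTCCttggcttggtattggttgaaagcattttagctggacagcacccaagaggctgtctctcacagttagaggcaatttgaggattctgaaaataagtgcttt
The Cldn5 window holds 0 matches, and the windows of Flt1 and Slco1a4 hold 4 each. Of 32851 promoter windows of this length in the same table, 93.4% hold at least 1 match, with a median of 3, so most promoters carry the core. The longer AGGAAG, searched on both strands and overlapping the core, has 0 matches before Cldn5, 2 before Flt1 and 1 before Slco1a4, and occurs in 29.5% of all windows.

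Of 196 cells that passed the filter of the study, 64 were fresh and 132 MeOH-fixed, and the deposited annotation calls 14 of them endothelial: 6 of 64 fresh cells (9.38%, exact binomial interval 3.52 to 19.3%) and 8 of 132 fixed cells (6.06%, 2.65 to 11.6%). The fresh endothelial cells held 19405 UMIs, from 1922 to 5166 per cell, and the fixed ones 20579, from 1271 to 4291. The median was 3219 UMIs per fresh and 2046.5 per fixed endothelial cell. Mitochondrial transcripts made up 8.49 to 33.1% of the counts in the fresh cells and 6.49 to 18.4% in the fixed cells. The identity had been named by the study from clusters and their markers, with Prom1 and Esam as its markers, so a higher level of these genes in it than elsewhere is a description and not a test.

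The label was checked with 15 endothelial markers that are not among the 10 genes (among them Tie1, Tek, Eng, Abcb1a and Slc2a1) and with 13 markers of pericytes and smooth muscle cells, the mural cells that wrap vessels. Prom1, used in naming the identity, is among the 15. The 14 cells fell into 2 kinds without any in between. In 10 cells, 4 fresh and 6 fixed, the other endothelial markers gave 9 to 76 UMIs and the mural markers 0 to 2. In the other 4 cells, 2 of each condition, the other endothelial markers gave 0 or 1 UMI and the mural markers 30 to 117. Without Prom1 the 14 remaining endothelial markers gave 8 to 72 and 0 to 1 UMIs, and no cell changed its kind. Of the 4 cells led by mural markers, fresh cell 1 held 56 UMIs of Acta2, 10 of Myh11 and 8 of Tagln, all 3 contractile genes of smooth muscle. It also held 6 UMIs of Rgs5 and 0 of Vtn. Fresh cell 3 held 43 UMIs of Vtn, 8 of Pdgfrb, 7 of Kcnj8 and 6 of Abcc9, which mark pericytes, but also 6 of Myh11. MeOH cell 5 held 72 UMIs of Vtn, 16 of Kcnj8, 12 of Abcc9 and 5 of Myh11. MeOH cell 3 held 11 of Vtn, 10 of Kcnj8, 1 of Abcc9 and 0 of Myh11. Acta2 and Tagln were at 0 UMIs in fresh cell 3, MeOH cell 5 and MeOH cell 3. Contractile genes thus led in fresh cell 1 and pericyte markers in the others, where Myh11 was the only contractile gene of the 3 found. No cell was assigned to a kind of mural cell from these few markers. In these 4 cells the data go against the label. They are called mural-led below, and the comparison of the conditions is given for each of the 10 genes with and without them, a choice made after seeing the data. Comparisons with other identities and values of further genes are over all 14 cells. Markers of other cell types were sparse in the 14 cells: microglial markers gave 0 UMIs in the fresh and 7 in the fixed cells, oligodendrocyte markers 2 and 7, astrocyte and radial glia-like cell (RGL) markers 6 and 10, neuronal markers 3 and 2, fibroblast markers 3 and 3, red cell markers 0 and 9, and ependymal and choroid plexus markers 0 in both. The markers of oligodendrocyte progenitor cells (OPCs) gave 10 UMIs in the fresh cells, all of Cspg4 in fresh cell 3, and 4 in the fixed cells.

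**Figure D1:**
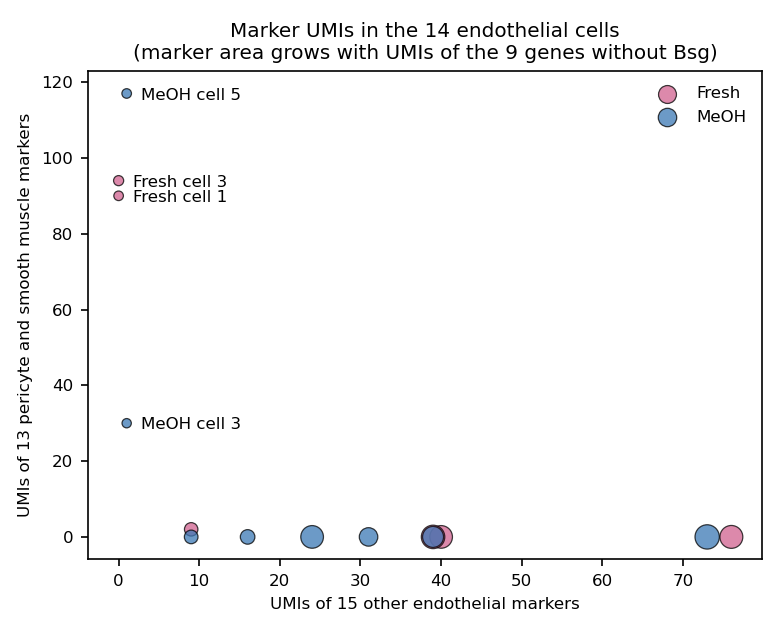
UMIs of 15 other endothelial markers (horizontal axis) against UMIs of 13 pericyte and smooth muscle markers (vertical axis) in each of the 14 cells called endothelial, with larger points for more UMIs of the 9 genes without Bsg. The 4 named cells lie at 30 to 117 mural UMIs and at most 1 endothelial UMI, and the other 10 lie along the bottom at 0 to 2 mural UMIs.

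The 10 genes followed the same division. The 10 cells led by endothelial markers each held 7 to 10 of the genes, with 22 to 182 UMIs, or 1.04 to 4.55% of a cell's UMIs. The 4 cells led by mural markers each held 0 to 2 of the genes, with 0 to 5 UMIs. In those 4 cells 8 of the 10 genes were at 0 among 8961 UMIs, which allows up to 335 CPM of each by the limit of 3 counts. The exceptions were Esam, with 1 UMI in fresh cell 1, 3 in fresh cell 3 and 1 in MeOH cell 5, and Bsg, with 4 in MeOH cell 5. Over all cells of the identity the median number of genes detected was 8 in both conditions, and without the 4 cells it was 9 in both.

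**Figure D2:**
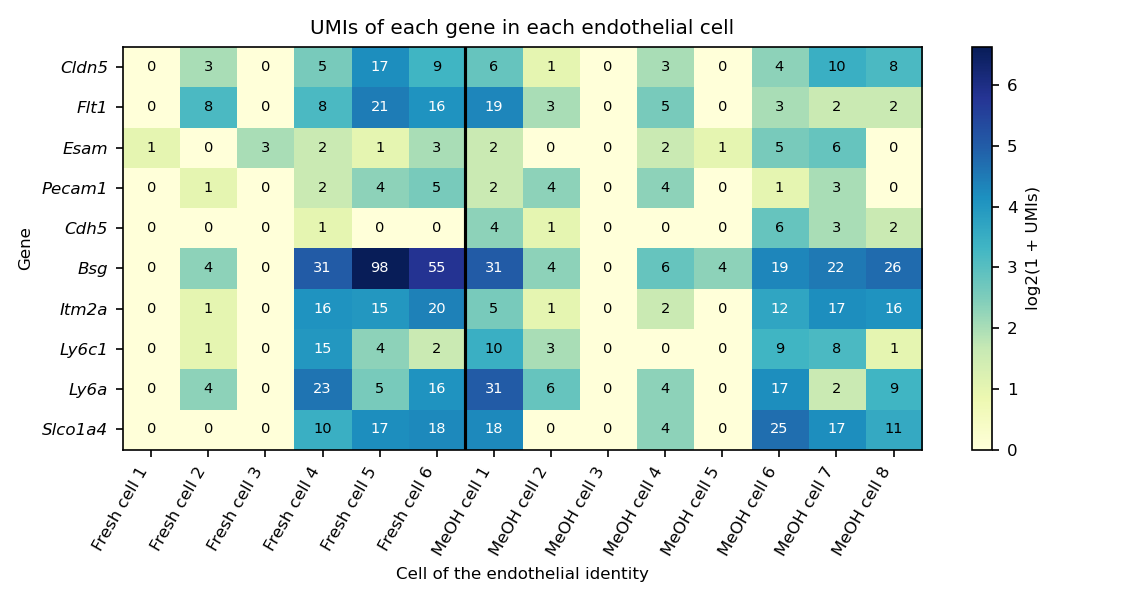
UMIs of each of the 10 genes (rows) in each of the 14 cells called endothelial (columns), fresh cells left of the black line and MeOH-fixed cells right of it, coloured by log2(1 + UMIs). Fresh cells 1 and 3 and MeOH cells 3 and 5 are nearly empty, and Bsg is highest in fresh cell 5 with 98 UMIs.

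Among the junction genes, Cldn5 had the most UMIs. Its UMIs in fresh cells 1 to 6 were 0, 3, 0, 5, 17 and 9, and in MeOH cells 1 to 8 they were 6, 1, 0, 3, 0, 4, 10 and 8. It was thus present in 10 of 14 cells, all those led by endothelial markers. The level was 1752 CPM (exact Poisson interval 1213 to 2448) in fresh and 1555 CPM (1064 to 2195) in fixed cells, and the ranges of the 2 conditions overlapped. The log2 ratio of fixed over fresh CPM was -0.17, with a conditional binomial interval from -0.92 to 0.57, and leaving out 1 cell at a time moved it between -0.47 and 0.38. Without the mural-led cells it was -0.38 (-1.12 to 0.36).

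Esam was sparse, with 1, 0, 3, 2, 1 and 3 UMIs in fresh cells 1 to 6 and 2, 0, 0, 2, 1, 5, 6 and 0 in MeOH cells 1 to 8. It was the only one of the 10 genes found in the mural-led fresh cells 1 and 3. Its level was 515 CPM (247 to 948) in fresh and 777 CPM (444 to 1263) in fixed cells, a log2 ratio of 0.59 (-0.64 to 1.89). Without the 4 mural-led cells the ratio was 1.03 (-0.42 to 2.69), which passes 2-fold but has an interval that includes 0.

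Pecam1 was present in 9 cells. Fresh cells 1 to 6 held 0, 1, 0, 2, 4 and 5 UMIs and MeOH cells 1 to 8 held 2, 4, 0, 4, 0, 1, 3 and 0. The level was 618 CPM (320 to 1080) in fresh and 680 CPM (372 to 1141) in fixed cells, and the log2 ratio was 0.14 (-1.08 to 1.38), or -0.07 (-1.29 to 1.18) without the mural-led cells. The values of the 2 conditions covered nearly the same range.

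Cdh5 was the gene with the largest difference. Fresh cells 1 to 6 held 0, 0, 0, 1, 0 and 0 UMIs, whereas MeOH cells 1 to 8 held 4, 1, 0, 0, 0, 6, 3 and 2. It was found in 1 fresh cell and in 5 fixed cells, the lowest fixed cells being no higher than the fresh ones. The level was 51.5 CPM (1.30 to 287) in fresh and 777 CPM (444 to 1263) in fixed cells, intervals that do not overlap. The ratio was 15.1-fold, and since it rests on 1 fresh UMI its counting interval runs from 2.34 to 633. Without fresh cell 4, the only fresh cell with Cdh5, 0 UMIs remained among 16491. Against the limit of 3 counts over those cells the fixed level was 4.27-fold higher, a value that leaves out the counting error of the fixed cells. Leaving out any other single cell gave log2 ratios between 3.47 and 4.08, and without the 4 mural-led cells it was 3.71 (1.02 to 9.10). Seen against the other genes rather than against depth, Cdh5 made up 1 of 277 UMIs of the 9 genes without Bsg in fresh cells (0.361%, 0.00914 to 1.99%) and 16 of 340 in fixed cells (4.71%, 2.71 to 7.53%). Barcodes that had failed the filter gave Cdh5 as 0 of 52 such UMIs on the fresh plate, which allows up to 6.85%, and 1 of 18 on the MeOH plate.

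Flt1, the receptor, had 0, 8, 0, 8, 21 and 16 UMIs in fresh cells 1 to 6 and 19, 3, 0, 5, 0, 3, 2 and 2 in MeOH cells 1 to 8. Of the 6 fixed cells led by endothelial markers, 5 held fewer UMIs than any of the 4 such fresh cells, and MeOH cell 1 held more than 3 of those 4. Relative to depth the separation was smaller. MeOH cell 4, with 5 of 1849 UMIs, lay close to fresh cell 4, with 8 of 2914. MeOH cell 1, with 19 of 4291, lay above all 4 fresh cells. The level was 2731 CPM (2046 to 3573) in fresh and 1652 CPM (1144 to 2309) in fixed cells, a log2 ratio of -0.73 (-1.39 to -0.08) with Poisson intervals that overlap. Without the 4 mural-led cells it was -0.93 (-1.60 to -0.28) and the Poisson intervals no longer overlapped. Without MeOH cell 1, which held 19 of the 34 fixed UMIs, the ratio was -1.57, and without fresh cell 5 it was -0.44.

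Bsg was the most abundant of the 10, at rank 11 of all genes by UMIs in endothelial cells. Fresh cells 1 to 6 held 0, 4, 0, 31, 98 and 55 UMIs and MeOH cells 1 to 8 held 31, 4, 0, 6, 4, 19, 22 and 26. By UMIs the 2 highest cells were fresh cells 5 and 6, and below them the conditions overlapped. Relative to depth, MeOH cell 8, with 26 of 1649 UMIs, lay above fresh cell 6, with 55 of 3757. The level was 9688 CPM (8353 to 11177) in fresh and 5442 CPM (4481 to 6549) in fixed cells, intervals that do not overlap, and was 1.78-fold lower in fixed cells (log2 ratio -0.83, -1.18 to -0.49). Without fresh cell 5, which held 98 of the 188 fresh UMIs, the log2 ratio was -0.22. Without the 4 mural-led cells it was -1.09 (-1.44 to -0.74).

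Slco1a4, the other transport gene, had 0, 0, 0, 10, 17 and 18 UMIs in fresh cells 1 to 6 and 18, 0, 0, 4, 0, 25, 17 and 11 in MeOH cells 1 to 8. It was missing from the 4 mural-led cells and from fresh cell 2 and MeOH cell 2, which also held few UMIs of the other genes. The level was 2319 CPM (1691 to 3103) in fresh and 3644 CPM (2867 to 4568) in fixed cells, a log2 ratio of 0.65 (0.10 to 1.22). The Poisson intervals overlapped, and without the 4 mural-led cells the ratio was 0.45 (-0.10 to 1.01).

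The 3 remaining membrane protein genes differed in how evenly the cells shared them. Itm2a had 0, 1, 0, 16, 15 and 20 UMIs in fresh cells 1 to 6 and 5, 1, 0, 2, 0, 12, 17 and 16 in MeOH cells 1 to 8. Its levels were nearly equal, 2680 CPM (2001 to 3514) in fresh and 2575 CPM (1929 to 3369) in fixed cells, a log2 ratio of -0.06 (-0.64 to 0.52), or -0.26 (-0.84 to 0.32) without the mural-led cells. For Ly6c1 the fresh cells held 0, 1, 0, 15, 4 and 2 UMIs, whereas the fixed cells held 10, 3, 0, 0, 0, 9, 8 and 1. Fresh cell 4 held 15 of the 22 fresh Ly6c1 UMIs, and the log2 ratio of 0.41 (-0.42 to 1.27) became 1.83 without it and 0.21 (-0.63 to 1.06) without the mural-led cells. For Ly6a they held 0, 4, 0, 23, 5 and 16, and the fixed cells 31, 6, 0, 4, 0, 17, 2 and 9. Its level was 2474 CPM (1824 to 3280) in fresh and 3353 CPM (2609 to 4243) in fixed cells, a log2 ratio of 0.44 (-0.11 to 1.00), and 0.23 (-0.32 to 0.80) without the mural-led cells. That ratio rested on single cells, being 1.15 without fresh cell 4, which held 23 of the 48 fresh UMIs, and -0.08 without MeOH cell 1, which held 31 of the 69 fixed UMIs.

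**Figure D3:**
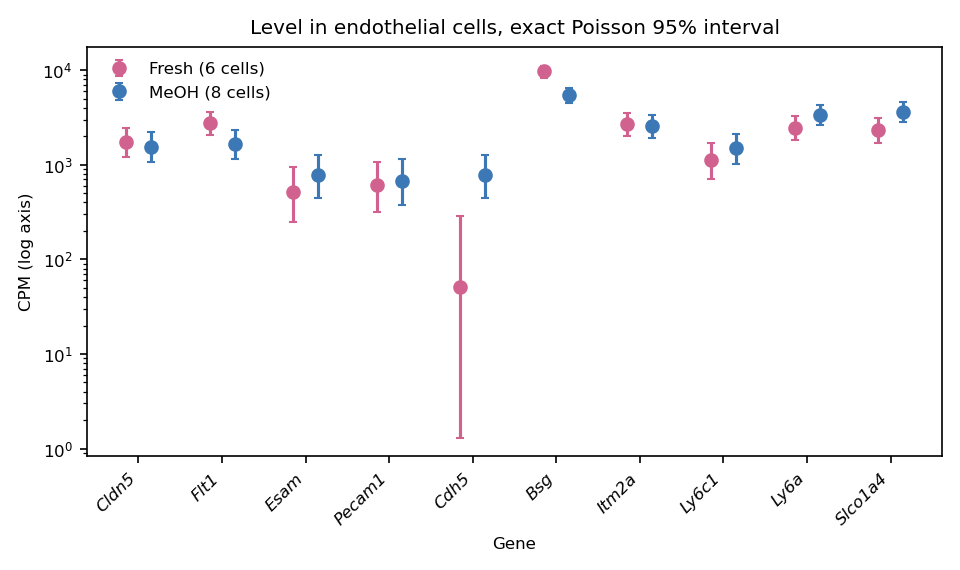
Level of each of the 10 genes (CPM, log axis) summed over 6 fresh and 8 MeOH-fixed endothelial cells, with exact Poisson 95% intervals. The intervals of the 2 conditions are apart for Cdh5, 51.5 against 777, and for Bsg, 9688 against 5442, and overlap for the other 8 genes.

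The differences of the 10 genes were then set beside those of all genes. Of 225 genes with at least 20 UMIs in the 14 endothelial cells, 33.8% were at least 2-fold apart between the conditions (19.1% higher and 14.7% lower in fixed cells), whereas 0 of the 9 genes described here that reach 20 UMIs were. Poisson intervals were apart for 16.4% of the 225 genes and for 1 of the 9, Bsg. At a minimum of 10 UMIs, added so that Cdh5 is included, 646 genes were compared. Of these, 39.3% were 2-fold apart and 7.28% had intervals apart, against 1 (Cdh5) and 2 (Cdh5 and Bsg) of the 10. With only the 10 cells led by endothelial markers, 469 genes reached 10 UMIs, of which 40.7% were 2-fold apart and 9.38% had intervals apart, against 3 of the 10 on either measure: Esam, Cdh5 and Bsg by fold, Flt1, Cdh5 and Bsg by interval. Over all 14 cells, the mural-led ones included, the median log2 ratio of the 10 genes was 0.27, beside 0.11 over the 646. Summed, they made up 2.40% of all UMIs in fresh and 2.20% in fixed endothelial cells, a log2 ratio of -0.13 (-0.32 to 0.06), which was -0.33 (-0.53 to -0.14) without the 4 mural-led cells. Without Bsg and without the mural-led cells, the sums were 19557 and 19866 CPM, a log2 ratio of 0.02 (-0.21 to 0.26).

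In the 182 cells of the other 7 identities the genes other than Bsg were traces. The 9 genes gave 617 UMIs in the 14 endothelial cells and 27 in the other 182, so that the endothelial identity held 96.9% of their UMIs among fresh cells and 94.97% among fixed cells. Their summed level was 14275 CPM in fresh endothelial cells and 17.5 CPM (7.995 to 33.2) in the other fresh cells, an 816-fold difference (424 to 1804). In fixed cells it was 16522 and 25.4 CPM (15.1 to 40.2), or 650-fold (405 to 1111). Per gene, the other cells held 6 UMIs of Itm2a, 5 each of Pecam1 and Ly6a, 4 of Ly6c1, 2 each of Cldn5 and Slco1a4 and 1 each of Flt1, Esam and Cdh5. At least 4-fold higher CPM in endothelial than in other cells was reached by 5.58% of the 8804 genes with at least 20 UMIs in all cells, and by the 9 of the 10 genes with that many. Apart from Bsg these reached 20 UMIs through the endothelial cells themselves, so their count supports nothing beyond the values given.

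At least 1 UMI of the 9 genes was found in 6 of 58 other fresh cells (10.3%, exact binomial interval 3.89 to 21.2%) and in 14 of 124 other fixed cells (11.3%, 6.31 to 18.2%). At an equal depth of 800 UMIs per cell the expected shares were 1.60% and 3.34%, the other fresh cells having a median of 6682.5 UMIs and the fixed ones 3487. No other cell held more than 3 UMIs, so none resembled the 10 endothelial-led cells, which held 18 to 97. The highest was a fixed OPC with 1 UMI of Cldn5 and 2 of Slco1a4. A fresh microglial cell held 1 UMI each of Pecam1 and Cdh5, and another held 1 each of Pecam1 and Ly6c1. A fixed cell of the identity of neural intermediate progenitor cells (nIPCs) and neuroblasts held 2 of Pecam1. Over both plates, traces were found in 4 of 15 OPCs (26.7%, 7.79 to 55.1%), 3 of 17 microglia (17.6%), 3 of 21 mature neurons (14.3%), 3 of 30 immature neurons (10.0%), 3 of 37 nIPCs and neuroblasts (8.11%), 3 of 47 astrocytes and RGLs (6.38%) and 1 of 15 oligodendrocytes (6.67%), shares whose exact intervals overlap. These shares are at unequal depth. At 800 UMIs per cell the expected shares were 9.71% in OPCs, 5.13% in microglia and 4.79% in mature neurons. They were 1.94% in nIPCs and neuroblasts, 1.82% in astrocytes and RGLs, 0.406% in immature neurons and 0.271% in oligodendrocytes. Whether the UMIs of these traces came from the cells themselves or from free RNA was not tested.

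Bsg stood apart from the rest. Its 300 endothelial UMIs were matched by 298 in other cells, where it was found in 39 of 58 fresh (67.2%, 53.7 to 79.0%) and 62 of 124 fixed cells (exact interval 40.9 to 59.1%). On the CPM scale, however, it was 36.1-fold (28.9 to 45.3) higher in fresh endothelial cells than in the other fresh cells and 24.1-fold (18.8 to 30.9) higher in the fixed ones. Among the other identities over both plates the order of levels was OPCs with 381 CPM (269 to 526), astrocytes and RGLs with 321 CPM (245 to 412), immature neurons with 266 CPM (218 to 322), mature neurons with 245.0 CPM (157 to 365), microglia with 213 CPM (113 to 364), nIPCs and neuroblasts with 186 CPM (137 to 246) and oligodendrocytes with 69.6 CPM (30.0 to 137). Neighbours in this order had overlapping intervals, except that nIPCs and neuroblasts were above oligodendrocytes with intervals that just missed each other. The order pools plates with different mixes of identities and did not hold within the fresh plate, where astrocytes and RGLs were at 374 CPM (269 to 508), immature neurons at 323 CPM (219 to 458) and OPCs at 298 CPM (167 to 491), and mature neurons held 0 UMIs of 12246. Over all the other cells the level was 268 CPM (225 to 317) fresh and 226 CPM (192 to 264) fixed.

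**Figure D4:**
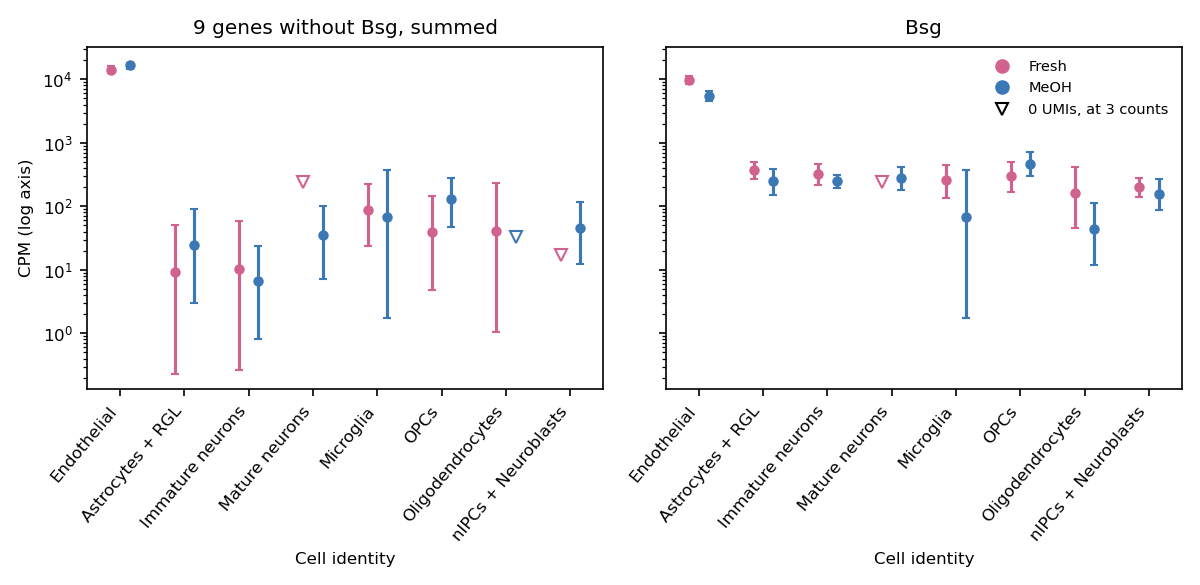
Level (CPM, log axis) of the 9 genes without Bsg, summed (left), and of Bsg (right) in each annotated identity, with exact Poisson 95% intervals, and open triangles at 3 counts where no UMI was found. The summed 9 genes are at 14275 and 16522 in endothelial cells and at most 129 wherever any of them was found elsewhere. Bsg is at 9688 and 5442 in endothelial cells and between 44.1 and 472 wherever it was found elsewhere. Fresh mature neurons, with 0 of 12246 UMIs in either panel, are drawn at 245.

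Other genes of the same pathways, from lists chosen with earlier results of these data known, gave a fuller view of these vessels' cells. Lists are counted over genes with at least 10 UMIs in the endothelial cells, a minimum that favours genes high there: of all 646 such genes, 41.8% were at least 4-fold higher than in other cells, 39.3% were 2-fold apart between the conditions and 7.28% had intervals apart. The counts below are a description beside these shares. Of 13 further tight junction genes in the matrix, 11 were detected in the 14 cells and 5 reached 10 UMIs, all at least 4-fold higher than in other cells. The angulin Lsr had 22 UMIs there and 1 elsewhere, the scaffold Tjp1 (ZO-1) had 17 and was 5.15-fold higher (2.89 to 8.66), Jam2 had 14 and was 4.87-fold higher (2.56 to 8.61), and occludin (Ocln) had 12 and was 26.2-fold higher (11.1 to 61.1). Of 12 adhesion genes, 4 reached 10 UMIs: β-catenin (Ctnnb1) with 57 UMIs and α-catenin (Ctnna1) with 17 were 3.25-fold and 5.84-fold higher than in other cells, CD34 (Cd34) with 19 was 83.0-fold higher, and afadin (Afdn) with 12 was 3.63-fold higher.

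All 22 barrier transporters were detected, 16 at 10 UMIs or more and 15 of these at least 4-fold higher than in other cells. The taurine transporter Slc6a6 had 76 UMIs and was 13.9-fold higher (10.5 to 18.4), the thyroid hormone transporter Slco1c1 had 70 and was 28.9-fold higher (20.6 to 40.7), and the glucose transporter Slc2a1 (GLUT1) had 59 and was 34.7-fold higher (23.5 to 51.4). Abcb1a, the drug efflux pump P-glycoprotein, had 41 UMIs and 0 in the other 182 cells, and so was 418-fold higher with those cells set at the limit of 3 counts, the lower bound of the counting interval being 325-fold. Between the conditions, Slc2a1 was at 1031 CPM in fresh and 1895 CPM in fixed cells, and Slco1c1 at 1494 and 1992 CPM. The sole transporter with Poisson intervals apart was the amino acid carrier Slc7a5, named here after its values were seen, with 19 fresh and 5 fixed UMIs (979 and 243 CPM), 1 of 16 beside the 7.28% of all genes. Slc7a1, another amino acid carrier named after its values were seen, went the other way, with 4 fresh and 14 fixed UMIs and a log2 ratio of 1.72 (0.05 to 3.78). The median log2 ratio of the 16 transporters was -0.27.

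Of 18 receptor and ligand genes of VEGF, angiopoietin and related pathways, 11 reached 10 UMIs, 9 of them at least 4-fold higher than elsewhere. The adhesion receptor Adgrf5 had 45 UMIs and 1 elsewhere, the phosphatase Ptprb (VE-PTP) 39 and 4, the receptor kinase Tie1 36 and 1, and Cd93 34 and 0. Tie1 had 26 fresh and 10 fixed UMIs, a log2 ratio of -1.46 (-2.68 to -0.36), with Poisson intervals that overlap, and Cd93 had 17 in each. The median over the 11 was -0.41, with 1 gene 2-fold higher and 4 genes 2-fold lower in fixed cells and no intervals apart, or 5 of 11 beside the 39.3% of all genes. Genes of Wnt and Norrin signalling, which induces and keeps the barrier, were mostly sparse: 15 of 16 were found, 4 of them with at least 10 UMIs, which were Ctnnb1 (57, as above), Sox17 and Foxq1 (11 each, with 0 and 2 elsewhere) and the coreceptor Lrp6 (11, with 10 fresh and 1 fixed).

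Among 18 transcription factors, 9 reached 10 UMIs and 7 of these were at least 4-fold higher than elsewhere. Epas1, the hypoxia-inducible factor HIF-2α, had 94 UMIs and was detected in all 14 cells, the mural-led ones included, at 23.4-fold the level of other cells (17.7 to 30.8). The flow-responsive factors Klf2 with 19 and Klf4 with 16 UMIs were 96.9-fold and 28.8-fold higher, whereas Tcf4 with 24 was lower than in other cells (0.398-fold, 0.254 to 0.594). Of the ETS factors, Ets1 had 13 UMIs, Fli1 6, Erg 3 and Ets2 0, the last with 55 in other cells. Of 10 genes of vesicles, fenestrae and peripheral endothelium, Plvap, which forms the diaphragms of fenestrae, was at 0 of 39984 endothelial UMIs, which allows up to 75.03 CPM, and the endomucin gene Emcn had 24 UMIs. Caveolar genes were present, with 15 UMIs of Cav2, 13 of Cavin2 and 11 of Cavin1.

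Among partners of basigin, the monocarboxylate transporter Slc16a1 (MCT1) had 10 UMIs and was 10.5-fold higher than in other cells (4.59 to 22.3), the integrin Itgb1 had 22 and was 6.60-fold higher, and cyclophilin A (Ppia), a basigin ligand, had 29 and was 1.21-fold higher (0.805 to 1.75). Their log2 ratios of fixed over fresh were -0.67 (-2.94 to 1.41), 1.01 (-0.37 to 2.55) and 1.57 (0.29 to 3.04). Of the Ly6 family, Ly6e was more abundant than Ly6c1 or Ly6a, with 130 UMIs in 10 cells, but with 252 UMIs elsewhere it was 15.8-fold higher (12.7 to 19.6). Ly6c2, which shares windows with Ly6c1, had 0 fresh and 3 fixed UMIs. Of the Itm2 family, Itm2b had 80 UMIs in all 14 cells and was 1.93-fold higher than elsewhere (1.52 to 2.43), and Itm2c had 5 and was lower (0.244-fold, 0.0791 to 0.573).

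The genes whose pattern over the 196 cells was most like that of the 9 summed genes were searched among 5092 genes with at least 50 UMIs, by Pearson's r of log2(1 + UMIs per 10000). The points share library, depth and the division of cell types, so r is a description. The 10 most alike were Fn1 (r = 0.82), Vwa1 (0.79), Srgn (0.78), Igfbp7 (0.71), Slc9a3r2 (0.70), Hspb1 (0.70), Ltbp4 (0.67), Slc39a10 (0.64), Col4a1 (0.63) and Col4a2 (0.59). Fn1 encodes fibronectin and Col4a1 and Col4a2 encode collagen IV of the basement membrane. The 4 mural-led cells held 0 UMIs of Fn1, Vwa1, Srgn, Slc9a3r2 and Ltbp4, but 43 of the 129 endothelial UMIs of Igfbp7 and 16 of the 47 of Col4a1. Of the 10 genes themselves, Cldn5 followed the sum of which it is a part most closely (0.91), and Bsg least (0.61).

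**Figure D5:**
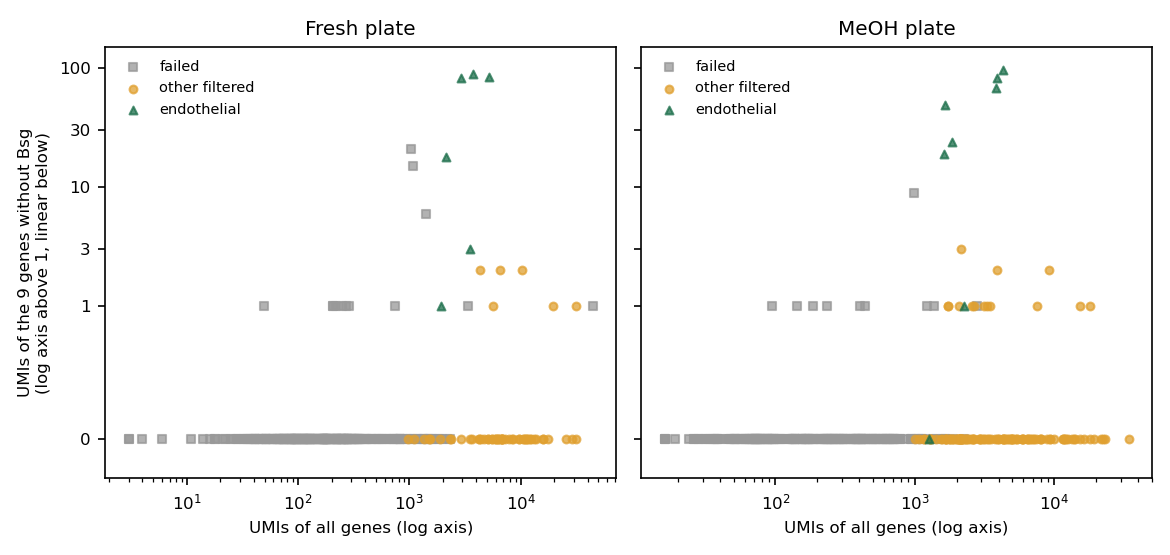
UMIs of the 9 genes without Bsg (vertical axis, log above 1 and linear below) against UMIs of all genes (horizontal log axis) for every barcode with at least 1 UMI on the fresh (left) and MeOH plate (right). Endothelial cells led by endothelial markers lie at 18 to 97, other filtered cells at 0 to 3, and 4 barcodes that failed the filter at 6 to 21.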

How the data were processed

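The authors sorted single cells into 384-well plates (8 wells left empty), sequenced 3′ ends and counted UMIs of uniquely mapped reads (STAR, GRCm38). Their deposited values are expected counts, in which each UMI count is corrected for collisions among the 4096 possible UMIs, before and after their filter (800 to 35000 transcripts, more than 500 genes, over 500 spike-in transcripts, transcripts per gene above 1.2), and metadata with the cell identity and the percent of mitochondrial counts. The notes of the submitters name R 4.2.0 and Seurat 4.1.0. Doublets had been gated out at sorting and no caller was run here.

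The adjustment was inverted to whole UMIs (largest distance from a whole number 3.64e-12). Barcode columns were assigned to their plate by name, and 24 well numbers held a filtered cell on both plates. Intervals are exact Poisson (levels), Clopper-Pearson (shares) and conditional binomial (ratios), at 95%, computed with Python 3.11.15, scipy 1.17.1 and pandas 2.3.3 and tested on simulated data. PCR, differences between cells and pooled animals add error that they do not cover. For the intervals, the simulated counts were drawn from the summed endothelial profile and hold no differences between cells. For levels, a count of 0 was read as allowing 3 counts, whereas a share of 0 was given its exact binomial limit. Thinning to 800 UMIs used hypergeometric expectations. With 1 library per condition no test was made.

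The 10 genes and all lists were chosen with earlier results of these data known. Named were all 10 genes, up to 4 genes with the most endothelial UMIs (at least 10) per pathway list, the 10 genes most like the sum, while single mural markers, Slc7a5, Slc7a1, Ets1, Ets2, Fli1, Erg, Plvap, Ly6c2 and Itm2c were named after their values were seen. Older symbols were matched through RefSeq synonyms. Alternatives were the deposited counts, other scalings, mitochondrial limits, each cell left out, other limits, and, added later with the data seen, leaving out cells led by mural markers, a minimum of 10 UMIs for the shares of all genes, and the marker check without Prom1.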

Additional observations from a re-analysis of the deposited data

Results flagged for a closer look

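Barcodes that had failed the filter enter no comparison above except the share of Cdh5. They held UMIs of the 9 genes without Bsg above the 3 counts that a count of 0 allows: 52 among 320 barcodes in the fresh library and 18 among 252 in the MeOH library. On the fresh plate 42 of the 52 lay in 3 barcodes. One had 1035 UMIs and 470 genes, with 8 UMIs of Cldn5, 6 of Flt1, 3 of Slco1a4, 2 of Pecam1 and 1 each of Esam and Ly6a. Another had 1070 UMIs and 448 genes, with 7 of Flt1, 4 of Slco1a4, 2 of Itm2a and 1 each of Cldn5 and Esam, and the last had 1401 UMIs and 427 genes, with 4 of Cldn5 and 2 of Flt1. On the MeOH plate 1 barcode with 983 UMIs and 450 genes held 9 of the 18, namely 4 of Cldn5, 3 of Ly6c1 and 1 each of Pecam1 and Itm2a. All 4 had 0 UMIs of the mural markers and 4 to 11 of the other endothelial markers, and all 4 passed 800 transcripts but not 500 genes. Counting the failed barcodes, the endothelial identity held 82.0% of the UMIs of the 9 genes in the fresh and 90.4% in the MeOH library.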

How the results depend on the processing

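No paired analysis was possible because each condition is 1 library. Over 18 results and 267 alternatives, 233 values stayed within the counting error of the reported value (counts within 1.5 times, medians within 1 gene), and 34 moved. No log2 ratio whose interval excluded 0 (Flt1, Cdh5, Bsg and Slco1a4) changed sign. Those whose interval included 0 did so in 23 values: 8 of Itm2a, 7 of Pecam1, 4 of the sum, 2 of Cldn5 and 1 each of Ly6c1 and Ly6a, each of 20. Without fresh cell 4, Cdh5 has no ratio. The summed log2 ratio was -0.46 by mean UMIs per cell, -0.39 with only cells of at most 25% mitochondrial counts and -0.33 without mural-led cells, and -0.41 to 0.14 with 1 cell left out. The number of the 10 genes 2-fold apart was 3, 2 and 3 under the same settings and 5 at a 1.5-fold limit. With 1 cell left out it was 1 to 3 (3 without fresh cell 3 or fresh cell 4, 2 without fresh cell 6, MeOH cell 1 or MeOH cell 8). Of all genes with at least 10 endothelial UMIs, 39.3% were 2-fold apart as reported and 40.7% without mural-led cells. For the other settings no share of all genes was computed, so those counts are not read as a result about the 10 genes. With Bsg the endothelial identity held 76.0% of the UMIs fresh and 71.7% fixed, and with failed barcodes 82.0% and 90.4%. The share of other cells with a UMI was 69.0% fresh and 55.6% fixed with Bsg, 1.60% and 3.34% at 800 UMIs, and 5.17% and 2.42% with at least 2 UMIs, where fresh lies above fixed. The median number of genes detected was 5.52 fresh and 6.86 fixed at 800 UMIs, 6 fresh with at least 2 UMIs per gene, 9 fresh with at most 25% mitochondrial counts, and 9 in both without mural-led cells. The cause of these shifts was not tested. With 14 cells and 1 library per condition, the intervals cover counting error only and do not show what difference could have been detected.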
